A study of Mus musculus with 42 samples.

Results

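Myosin heavy chains are the motor proteins of the thick filament, and 6 of their genes, Myh1, Myh2, Myh3, Myh4, Myh7 and Myh8, were followed across mouse tibialis anterior (TA) muscle. They were taken by symbol from the table of normalized counts, and all 6 were found among its 13809 genes. RNAseq was done on 42 libraries in 2 sets, and every comparison was made within a set, apart from a test of the difference between the sets. All mice were 4-month-old males. Set 1 held WT mice, Sesn1SkM-Tg mice, which carry a human Sesn1 cDNA under the muscle creatine kinase (MCK) promoter, and Sesn2SkM-Tg mice, in which a tetracycline-regulated Sesn2 transgene is driven by an MCK-tTA transgene. Set 2 held WT mice and Sesn1KO mice, which lack Sesn1 in the whole body. The methods place the Sesn1SkM-Tg line on the C57BL/6J background and name no strain for the Sesn2SkM-Tg and Sesn1KO lines. Each genotype was sampled in the basal state, with no atrophy induced, and 3 days after immobilization, in which the right hindlimb was held immobile. WT mice of set 2 were also sampled 3 days after denervation, in which a segment of the sciatic nerve was removed. Each group had 4 libraries, except 3 for immobilized WT muscle of set 1 and 3 for immobilized Sesn1SkM-Tg muscle. The sestrins are stress-inducible proteins that act on growth signaling, and the study compared their gain and loss during disuse.

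Muscle fibers differ in contraction speed largely through the heavy chain they make. Myh4 encodes the fastest chain, IIB, Myh1 encodes IIX, Myh2 encodes IIA, and Myh7 encodes the slow type I chain. Myh3 and Myh8 encode the embryonic and neonatal chains, which are made in developing and regenerating fibers and are replaced as fibers mature. The mouse TA is a fast muscle, made mainly of IIB and IIX fibers. Fibers can switch chains when nerve activity or load changes.

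In the GRCm38 annotation, 5 of the genes lie in the same direction on the plus strand of chromosome 11, in the order Myh3 (67078300 to 67102291), Myh2 (67171027 to 67197517), Myh1 (67200052 to 67224575), Myh4 (67238029 to 67260446) and Myh8 (67277124 to 67308634). The gap between Myh2 and Myh1 is 2.5 kb. Myh13, a chain known from extraocular muscle, follows Myh8. Myh7 lies apart, on the minus strand of chromosome 14 (54970684 to 54994626), beside the cardiac gene Myh6. The longest coding transcripts are alike in length, from 6.016 kb for Myh4 to 6.230 kb for Myh7. The transcripts also share sequence: 40.6% of all 30-base words of Myh1, 39.3% of those of Myh2 and 31.2% of those of Myh4 occur in another gene, and the corresponding shares were 33.3% for Myh8, 32.6% for Myh7 and 11.8% for Myh3. Myh1 shares 28.7% of its words with Myh2. How reads from such stretches were divided between the genes was set by the estimation step of the authors, so the levels of neighboring chains carry that uncertainty.

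The promoters of the 3 adult fast genes and of Myh3 are shown because, after denervation, the first 3 genes fell together and Myh3 rose. Sequences are RefSeq windows of GRCm38.p6, from 250 bases before to 50 bases after the RefSeq start, which can differ from that of the gene model above, read 5′ to 3′ on the plus strand. Their positions are chr11:67170777-67171076 (Myh2), chr11:67199852-67200151 (Myh1), chr11:67237562-67237861 (Myh4) and chr11:67078050-67078349 (Myh3). Capitals mark a 20-base run that Myh2, Myh1 and Myh4 have in common and the letters TATAAAA.
Myh2: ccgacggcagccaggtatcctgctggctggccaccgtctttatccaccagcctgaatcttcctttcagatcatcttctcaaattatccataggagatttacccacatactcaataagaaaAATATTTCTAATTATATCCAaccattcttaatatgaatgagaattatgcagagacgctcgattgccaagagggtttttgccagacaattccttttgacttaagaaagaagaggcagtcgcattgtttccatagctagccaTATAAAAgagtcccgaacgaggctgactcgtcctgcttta
Myh1: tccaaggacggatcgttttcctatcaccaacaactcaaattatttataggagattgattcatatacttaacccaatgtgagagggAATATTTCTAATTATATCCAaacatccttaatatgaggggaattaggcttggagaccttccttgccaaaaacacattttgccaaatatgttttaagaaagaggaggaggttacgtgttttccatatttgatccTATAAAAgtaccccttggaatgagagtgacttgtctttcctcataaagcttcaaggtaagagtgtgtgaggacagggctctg
Myh4: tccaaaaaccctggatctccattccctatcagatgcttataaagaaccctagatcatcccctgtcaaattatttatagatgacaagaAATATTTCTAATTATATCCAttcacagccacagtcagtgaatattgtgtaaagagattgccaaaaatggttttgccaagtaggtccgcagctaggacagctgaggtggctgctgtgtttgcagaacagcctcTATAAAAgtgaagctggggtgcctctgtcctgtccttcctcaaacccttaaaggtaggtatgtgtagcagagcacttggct
Myh3: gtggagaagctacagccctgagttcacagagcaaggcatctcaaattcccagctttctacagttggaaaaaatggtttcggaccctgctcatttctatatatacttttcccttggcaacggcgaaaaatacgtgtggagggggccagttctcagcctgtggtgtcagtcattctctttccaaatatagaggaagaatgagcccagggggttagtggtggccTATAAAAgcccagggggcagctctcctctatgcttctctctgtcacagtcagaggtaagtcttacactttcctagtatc

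The 20-base run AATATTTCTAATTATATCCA was present in 3 of the 32851 promoter windows (0.00913%), which are those of Myh2, Myh1 and Myh4. The run was chosen as the longest that these 3 windows share, so its presence in them was fixed in advance. The count shows only that no other window holds the run. Counted from 0 at the RefSeq start, it begins at position -130 in Myh2, -165 in Myh1 and -163 in Myh4. The Myh8 window shares 14 of these bases, TTCTAATTATATCC, which occur in 4 windows (0.0122%). TATAAAA begins at position -31 in Myh4, -32 in Myh1, -29 in Myh3 and 10 in Myh2. The windows of Myh7 and Myh8 do not hold these letters on either strand, and 5.48% of all windows do. The E box letters CANNTG, searched on both strands, occur in 72.3% of all windows, with 3 in Myh4, 2 in Myh7, 2 in Myh8, 1 in Myh3 and none in Myh1 or Myh2. These matches are descriptions of sequence, and binding of a factor was not measured.

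Myh4 was among the most abundant transcripts of the muscle, between rank 1 and rank 6 in every library, and it was the highest of all genes in 6 of the 42. Myh1 ranked between 4 and 30, and Myh2 between 37 and 2057. Normalized counts, the deposited unit, are on a linear scale, with library sums from 722430 to 1276769. Per kilobase of transcript, the order Myh4, Myh1, Myh2 and then the other 3 genes held in 42 of the 42 libraries. The ranges of Myh4, Myh1 and Myh2 did not overlap in any of the 11 groups. Myh3, Myh7 and Myh8 were scarce, from 0.114 to 44.0 normalized counts, and the ranges of neighbors in their order overlapped in all groups. This pattern is that of a fast muscle. In these bulk samples, fewer fibers of a type and less RNA per fiber cannot be told apart.

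**Figure D1:**
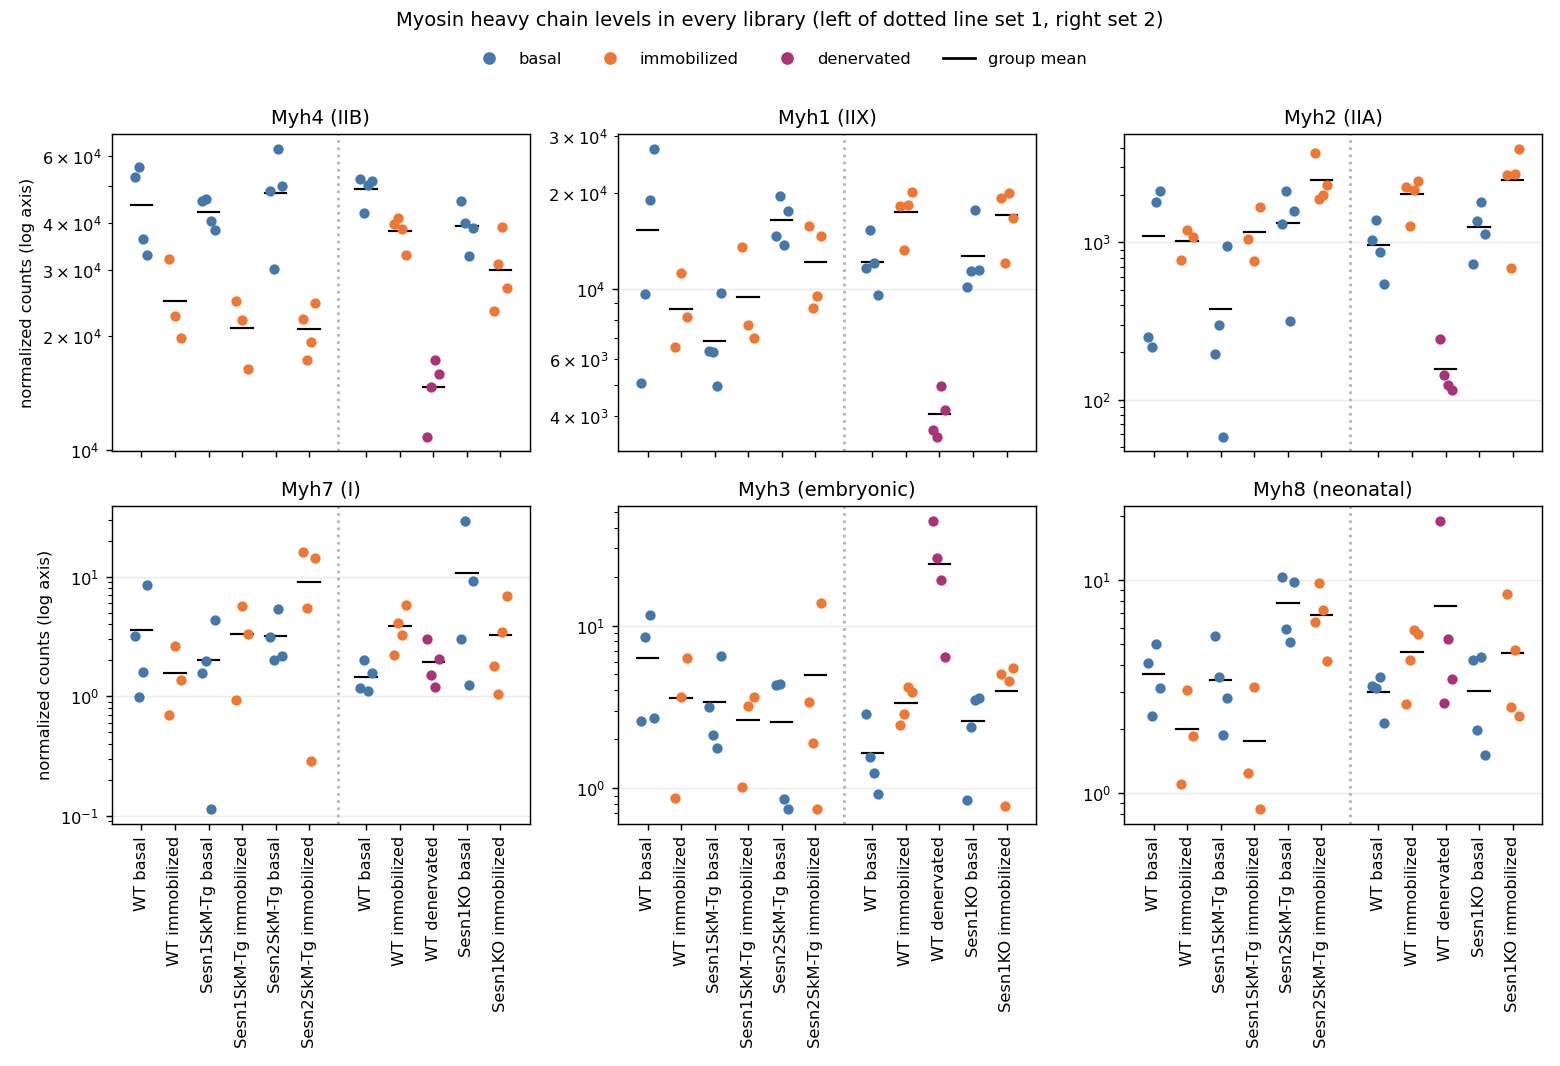
Normalized counts (log axis) of the 6 genes in each of the 42 libraries, by group, with 1 point per library. Myh4, Myh1 and Myh2 form separate levels in every group, and Myh3 is highest in denervated muscle, from 6.36 to 44.0.

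The make-up of the family was given as the share of each chain in the sum of the 6, after division by transcript length. In basal WT muscle of set 2, Myh4 held 79.1% ± 4.97 (SD, n = 4), Myh1 19.4% ± 4.39 and Myh2 1.53% ± 0.601. Basal WT muscle of set 1 had a similar mean with a wider spread, at 73.2% ± 17.9 for Myh4, 24.9% ± 16.2 for Myh1 and 1.82% ± 1.67 for Myh2 (n = 4). Myh1 was 5078, 9642, 18900 and 27425 normalized counts in these 4 libraries, in replicate order, and Myh2 was 248, 216, 1801 and 2126. Replicates 3 and 4 were high for both genes and low for Myh4, at 36273 and 32794 against 52679 and 56193. The summed level of 5 slow-fiber markers (Myl2, Myl3, Tnnt1, Tnni1 and Tnnc1) was 22.6, 20.8, 74.9 and 134 in the same libraries. Most of it was Myl3, at 15.9, 16.9, 64.9 and 115. Whether the dissection took more of a neighboring muscle in replicates 3 and 4 was not tested. Over all libraries the 3 scarce chains together held at most 0.444% of the family.

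**Figure D2:**
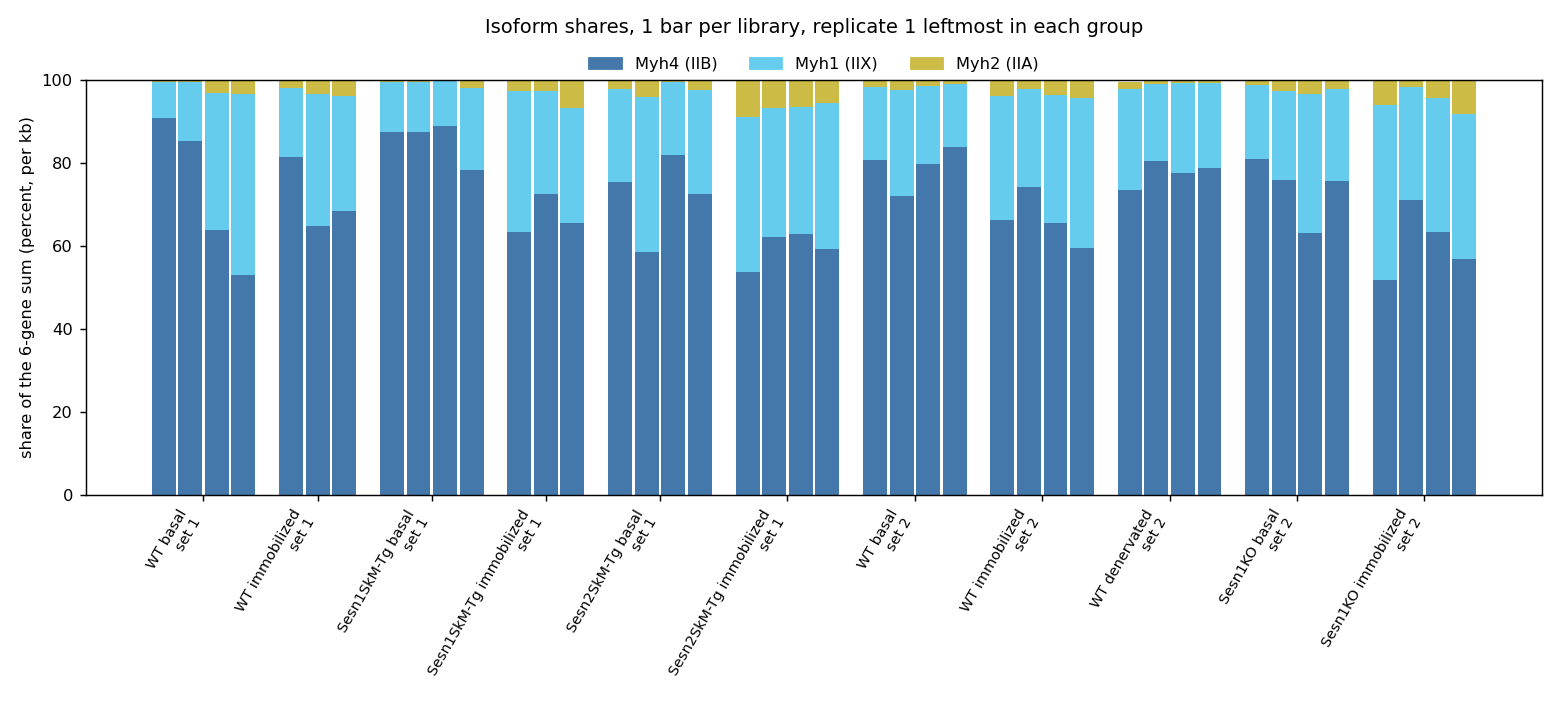
Share of each chain in the summed, length-divided level of the 6 genes (percent), for each library by group. Myh4 holds the largest share in every library, from 51.8% to 90.9%.

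After denervation, the adult fast chains fell together and the embryonic chain rose. Myh4 fell to 0.295-fold, Myh1 to 0.335-fold and Myh2 to 0.165-fold of basal WT muscle, and Myh3 rose 8.05-fold on the log2(value + 1) scale. By limma on log2(value + 1), with a call set at 0.05 for the adjusted p and 0.25 or more for the size of the log2 fold change, 4 of the 6 genes changed, 1 higher and 3 lower, where 55.5% of all 13629 genes tested were called in this comparison. The median log2 fold change of the 6 genes was -0.67, and that of all genes was -0.03. A share of 4 in 6 is near this background, so the size of the changes is what the values below describe.

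Myh4, the IIB chain, was 52315, 42367, 50321 and 51590 normalized counts in basal WT muscle of set 2 and 10824, 14666, 17338 and 15861 after denervation. All denervated libraries were below all basal libraries. Its log2 fold change was -1.76 ± 0.19 (SE, 4 against 4; adjusted p = 1.33e-07, limma). Myh1, the IIX chain, was 11584, 15213, 12037 and 9575 in basal muscle and 3618, 3429, 4939 and 4179 after denervation. The groups did not overlap, and the log2 fold change was -1.58 ± 0.20 (adjusted p = 1.21e-06, limma). Myh2, the IIA chain, was 1032, 1381, 867 and 548 in basal muscle and 242, 143, 125 and 115 after denervation. Again every denervated library was lower, with a log2 fold change of -2.60 ± 0.41 (adjusted p = 1.44e-05, limma). Under quantile normalization, which sets the highest ranks of all libraries equal, the log2 fold changes of Myh4 and Myh1 were -0.60 and -0.65, and both were still called.

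Myh3, the embryonic chain, was 2.86, 1.56, 1.24 and 0.922 normalized counts in basal WT muscle and 44.0, 26.1, 19.0 and 6.36 after denervation. The groups did not overlap, although the denervated libraries ranged widely. Its log2 fold change was 3.01 ± 0.45 (adjusted p = 7.42e-06, limma). The ratio of its group means was 14.5, larger than the fitted fold because the added 1 compresses low values. Even so, Myh3 held 0.139% ± 0.115 of the family after denervation against 0.0026% ± 0.0013 in basal muscle (n = 4 each).

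Neither Myh8 nor Myh7 passed the test as fitted. Myh8, the neonatal chain, was 19.0, 2.66, 5.32 and 3.46 after denervation against 3.17, 3.14, 3.51 and 2.14 in basal muscle, with 1 denervated library standing apart, 1 slightly above the basal range and the other 2 inside it (log2 fold change 0.77, adjusted p = 0.122, limma). Myh8 was called with every library scaled to the same sum (1.15, adjusted p = 0.0228) and without denervated replicate 2 (1.06, adjusted p = 0.0427), and leaving out 1 library gave values down to 0.25. Myh7, the slow chain, was 3.00, 1.5, 1.2 and 2.05 after denervation and 1.18, 2.03, 1.10 and 1.56 in basal muscle, so that the groups overlapped (0.23, adjusted p = 0.740, limma). By share of the family, both genes were higher in every denervated library than in any basal library. The mean family sum was 18903 normalized counts after denervation and 62213 in basal muscle, so a gene of unchanged level would also rise in share. The shares alone therefore do not show a higher level of either gene. Myh7 held 0.0107% ± 0.0063 against 0.0023% ± 0.00077, and Myh8 0.0452% ± 0.0544 against 0.0047% ± 0.00092 (n = 4 each). Each difference had an exact permutation p of 0.0286 and an adjusted p of 0.214.

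The family as a whole took 2.42% ± 0.301 of the library sum after denervation and 5.79% ± 0.334 in basal muscle (n = 4 each), without overlap. The exact two-sided permutation p was 0.0286, the smallest that 4 against 4 allows, and 0.0857 after adjustment over the 15 comparisons of this quantity, so it did not pass. Among the chains that remained, the mean proportions of the abundant ones were close: Myh4 held 77.6% ± 2.93 after denervation and 79.1% ± 4.97 in basal muscle (difference -1.48 percentage points, exact permutation p = 0.629). Myh1 held 21.3% ± 2.40 against 19.4% ± 4.39, and Myh2 0.879% ± 0.509 against 1.53% ± 0.601. None of these 3 share differences passed, nor did any of the 90 share tests after adjustment (lowest adjusted p = 0.214, exact permutation tests). With a smallest p of 0.0286 for 4 against 4, passing over 90 tests would have needed many tests at that floor. These tests therefore cannot show that shares were equal.

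**Figure D3:**
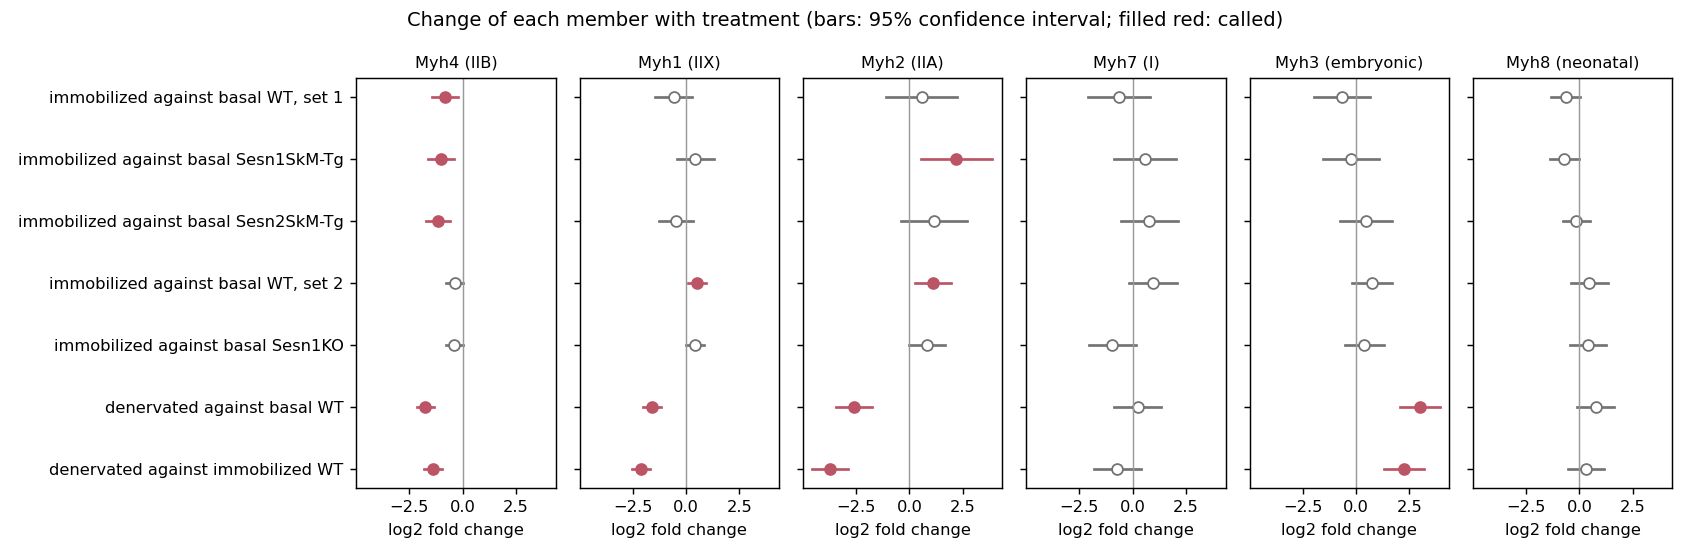
Log2 fold changes of the 6 genes with 95% confidence intervals, for each treatment against basal muscle and for denervated against immobilized WT muscle, from limma on log2(value + 1). The interval of Myh4 lies below 0 after denervation, and that of Myh3 lies above it, at 3.01 ± 0.45 (SE).

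Genes that work with these chains were counted over lists of related genes. Of all genes, 27.8% were called higher and 27.7% lower after denervation. Of 12 fast-fiber sarcomere and calcium genes, 12 fell and 0 rose after denervation, with a median log2 fold change of -1.22. On the log2 scale the largest changes were in Mylk2, the kinase of the regulatory light chain in skeletal muscle (-3.13), Casq1, a calcium store protein of fast fibers (-1.98), Myoz1 (-1.90) and Mybpc2, the fast form of myosin-binding protein C (-1.62). The 10 slow-fiber genes went both ways, with 2 higher and 3 lower and a median of -0.20, counts near the shares of all genes. Myl3, the slow essential light chain (-2.55), and Casq2 (-1.56) fell, while Atp2a2, the slow calcium pump (1.2), and Tnni1, slow troponin I (1.13), rose. The slow chain Myh7 itself was not called.

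Of 9 developmental and denervation genes tested, 8 rose and 1 fell, with a median of 2.49. Myog, a muscle-specific transcription factor, rose by 5.57, Runx1 by 5.28, Chrna1 by 4.60 and Chrng, the fetal subunit of the acetylcholine receptor, by 3.43 on the log2 scale. Actc1, the cardiac and fetal actin, was the gene that fell, by 2.50.

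Of 18 regulators of fiber type, 4 rose and 11 fell (median -0.61). Maf, a transcription factor of the large Maf family (-2.40), Ppargc1a, a coactivator of oxidative genes (-2.04), and Vgll2, a cofactor in muscle gene expression (-1.81), fell, while Hdac4, a histone deacetylase that responds to nerve activity, rose by 2.04. Of 9 genes of myosin folding and thick filament assembly, 2 rose and 6 fell (median -0.83). The 2 were Hspb8 (2.87) and Hsp90aa1 (1.84), both heat shock proteins. Smyd1, a methyltransferase needed for thick filament assembly, fell by 1.68, and Myom2, a protein of the M-band, fell by 0.98. Of the 7 other heavy chain genes tested, 1 rose and 5 fell (median -1.06). Myh14, a nonmuscle chain, rose by 1.44, while Myh13 (-2.10), Myh11, the smooth muscle chain (-1.15), and Myh7b (-1.10) fell. All values of these lists come from the same limma fit, and all genes named were called.

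Markers of other cell types moved with denervation too, where 27.8% of all genes were called higher and 27.7% lower. The 3 smooth muscle markers all fell, and their sum ranged from 99.6 to 110 in basal and from 32.3 to 46.8 in denervated muscle. The 3 endothelial markers also fell, with sums of 205 to 261 and 101 to 129. Of 4 macrophage markers tested, 1 rose (sums of 7.69 to 37.1 and 24.3 to 63.1), and of 5 muscle fiber markers, 4 fell and 1 rose, the list including Myh4 itself. The 5 slow-fiber markers had sums of 41.6 to 117 in basal and 16.7 to 39.4 in denervated muscle, without overlap, with 1 marker higher and 1 lower by the test. Myl3 alone was 37.3 to 108 in basal and 9.56 to 15.5 in denervated muscle, so the fall in the sum is largely that of 1 gene. The Schwann cell sums, 15.6 to 26 and 3.44 to 7.09, did not overlap either, with 1 of 4 markers lower. All 3 adipocyte markers fell, and 2 of 4 fibroblast markers did. No marker was at 0 in any library, but the deposited values hold no 0 for any gene, so this does not show detection. The part of these shifts in the changes of the heavy chains was not tested.

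Denervated and immobilized WT muscle of set 2 differed in the same 4 genes. Both treatments were also compared with the same basal libraries, so those comparisons are not independent of each other. Here 3 genes were lower and 1 was higher in denervated muscle, against 38.9% of all genes called, and the median log2 difference of the 6 genes was -1.05 (all genes, -0.02). Myh2 differed most, at 242, 143, 125 and 115 normalized counts after denervation and 2249, 1263, 2166 and 2447 after immobilization. The groups were far apart, and denervated muscle had 0.0762-fold the level (adjusted p = 3.72e-07, limma), which was rank 11 of all 13629 genes by absolute difference. Myh1 stood at 0.232-fold (adjusted p = 6.84e-08), Myh4 at 0.382-fold (8.30e-06) and Myh3 at 4.79-fold (0.000383), each without overlap. By share, Myh2 held 0.879% ± 0.509 of the family after denervation and 3.50% ± 0.900 after immobilization, without overlap (n = 4 each; exact permutation p = 0.0286, adjusted p = 0.214). Myh1 held 21.3% ± 2.40 and 30.1% ± 5.15 in the same order. The mean share of Myh4 was higher in denervated muscle although its level was lower, at 77.6% ± 2.93 against 66.4% ± 6.04 (exact permutation p = 0.0571, adjusted p = 0.214).

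Immobilization gave a smaller and less uniform pattern. In WT muscle of set 2, 2 of the 6 genes rose, Myh1 and Myh2, against 33.9% of all genes called, and the median of the 6 was 0.64 (all genes, -0.02). Myh2 was 2249, 1263, 2166 and 2447 normalized counts after immobilization and 1032, 1381, 867 and 548 in basal muscle. Only the lowest immobilized library fell within the basal range, and the log2 fold change was 1.12 ± 0.41 (adjusted p = 0.0379, limma). Myh1 was 18144, 13233, 18253 and 20124 after immobilization against 11584, 15213, 12037 and 9575, also with 1 library inside the basal range (0.53 ± 0.20, adjusted p = 0.0487, limma). Both calls were near the threshold, and each was kept in 2 of 8 fits that left out 1 library.

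In the same libraries, Myh4 was 39752, 41192, 38362 and 32751 against 52315, 42367, 50321 and 51590, lower in every immobilized library than in any basal library. With a log2 fold change of -0.37 it was not called (adjusted p = 0.148, limma). Myh7 was 2.23, 4.09, 3.27 and 5.87 after immobilization, above every basal library, and was not called either (0.94, adjusted p = 0.184). The family sum was 5.83% ± 0.160 of the library sum after immobilization and 5.79% ± 0.334 in basal muscle (n = 4 each; exact permutation p = 0.943). In set 1 the mean family sum was lower after immobilization, at 4.00% ± 0.512 (n = 3) against 5.59% ± 0.411 (n = 4) in WT and 3.74% ± 0.422 (n = 3) against 4.81% ± 0.353 (n = 4) in Sesn1SkM-Tg muscle, both without overlap (exact permutation p = 0.0571 each, the smallest possible, and adjusted p = 0.122). In Sesn2SkM-Tg muscle it was 3.88% ± 0.586 against 5.88% ± 1.33, with overlap (n = 4 each; exact permutation p = 0.0857, adjusted p = 0.161), and in Sesn1KO muscle 4.84% ± 0.485 against 4.82% ± 0.0902. In WT muscle of set 2, mean shares were lower for IIB and higher for IIX and IIA. There Myh4 held 66.4% ± 6.04 against 79.1% ± 4.97, Myh1 30.1% ± 5.15 against 19.4% ± 4.39, and Myh2 3.50% ± 0.900 against 1.53% ± 0.601. Each of these 3 differences had an exact permutation p of 0.0571 and an adjusted p of 0.214, so none passed. The log2 ratio of Myh1 to Myh2 in this muscle was 3.13 ± 0.175 against 3.72 ± 0.312, without overlap (n = 4 each; exact permutation p = 0.0286, adjusted p = 0.171 over 30 ratio tests). In WT muscle of set 1, mean shares were close for Myh4, at 71.6% ± 8.80 (n = 3) against 73.2% ± 17.9 (n = 4). There Myh1 held 25.4% ± 7.93 against 24.9% ± 16.2 (exact permutation p = 0.971 for each gene). Myh2 held 3.01% ± 0.939 against 1.82% ± 1.67 (exact permutation p = 0.343).

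In WT muscle of set 1, the gene that changed was Myh4, and it fell. It was 32063, 22685 and 19829 normalized counts after immobilization and 52679, 56193, 36273 and 32794 in basal muscle. The groups did not overlap, but the highest immobilized library lay just under the lowest basal library. The log2 fold change was -0.83 ± 0.30 (3 against 4; adjusted p = 0.0392, limma), with 29.3% of all genes called. The call was kept in 3 of 7 fits that left out 1 library. It was lost without WT basal replicate 1 or 2 and without WT immobilized replicate 2 or 3, with an adjusted p of up to 0.182. It was also lost under quantile normalization (-0.38, adjusted p = 0.310) and with every library scaled to the same sum (-0.49, adjusted p = 0.163), which moved the median of all genes from 0.00277 to 0.28. Myh1 (-0.58, adjusted p = 0.308) and Myh2 (0.57, adjusted p = 0.627) were not called, and the median of the 6 genes was -0.64 (all genes, 0.00277). Without WT basal replicate 1, Myh1 was called lower in place of Myh4 (adjusted p = 0.0452, limma).

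The difference between the sets in this effect was tested directly, and none of the 6 genes was called, where 6.20% of all 13763 genes were. For Myh1 the effect in set 1 minus that in set 2 was -1.11 (adjusted p = 0.152, limma), and for Myh4 it was -0.46 (adjusted p = 0.441). Without WT basal replicate 1 of set 1, the difference of Myh1 was called (adjusted p = 0.0233, limma). Marker lists did go opposite ways in the sets. The smooth muscle sum was 39.2 to 62.1 in basal and 84.5 to 154 in immobilized WT muscle of set 1, and 99.6 to 110 and 34.0 to 69.6 in set 2. The Schwann cell sum was 4.86 to 10.2 and 12.5 to 35.4 in set 1, and 15.6 to 26 and 7.73 to 19.2 in set 2. Their part in the values of the heavy chains was not tested.

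In the sestrin transgenics, Myh4 fell with immobilization in both lines. In Sesn1SkM-Tg muscle it was 45547, 46137, 40306 and 38221 normalized counts in basal libraries and 24794, 22079 and 16409 in immobilized ones (log2 fold change -1.03 ± 0.30, adjusted p = 0.0108, limma). In Sesn2SkM-Tg muscle it was 48478, 30186, 62759 and 49915 in basal libraries and 22283, 17318, 19362 and 24520 in immobilized ones (-1.16 ± 0.27, adjusted p = 0.00298). The groups did not overlap in either line. The Sesn2SkM-Tg call was kept in 8 of 8 fits without 1 library, and the Sesn1SkM-Tg call in 6 of 7, being lost without immobilized replicate 3 (adjusted p = 0.0664). Under quantile normalization Myh4 was called in neither line (-0.14, adjusted p = 0.729, in Sesn1SkM-Tg and -0.46, adjusted p = 0.181, in Sesn2SkM-Tg muscle). In Sesn1SkM-Tg muscle that setting called Myh8 in its place (-0.95, adjusted p = 0.0255).

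Markers of other cell types also differed in the same immobilized libraries, and not all in the same direction. Adipocyte marker sums were 1.93 to 20.4 in basal and 0.621 to 1.92 in immobilized Sesn1SkM-Tg muscle. In Sesn2SkM-Tg muscle they were 0.615 to 2.60 and 0.257 to 1.49, with overlap. Of all genes, 18.2% were called higher in Sesn1SkM-Tg, 15% in Sesn2SkM-Tg and 14.9% in WT muscle of set 1. Macrophage marker sums were 7.0 to 16.3 in basal and 51.8 to 126 in immobilized Sesn1SkM-Tg muscle, with 4 of 4 markers called higher, and 12.7 to 17.7 and 48.7 to 144 in Sesn2SkM-Tg muscle, with 2 of 4. Fibroblast sums were 324 to 500 and 815 to 2280 in Sesn1SkM-Tg muscle, with 4 of 4 called higher, and 346 to 463 and 339 to 730 in Sesn2SkM-Tg muscle, with 0 of 4. In WT muscle of set 1, macrophage sums were 11.2 to 18.8 and 58.3 to 122, with 4 of 4 called higher, and fibroblast sums were 311 to 734 and 718 to 1306, with 3 of 4. Their part in the falls of Myh4 was not tested.

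Myh2 rose with immobilization in Sesn1SkM-Tg muscle, with 194, 300, 57.8 and 952 normalized counts in basal and 1047, 764 and 1685 in immobilized libraries. The ranges overlapped through the highest basal library. The log2 fold change was 2.21 with a 95% confidence interval of 0.53 to 3.88 (adjusted p = 0.0381, limma), and the call was kept in 1 of 7 fits without 1 library. The slow-fiber marker sums of these libraries were 22.3, 24.0, 11 and 89.8 in basal and 71.3, 79.4 and 88.2 in immobilized muscle, with 2 of the 5 markers called higher (median 0.97). Most of each sum was Myl3, at 17.5, 19.0, 9.12 and 76.2 in basal and 55.0, 57.2 and 65.3 in immobilized muscle. The highest basal library for Myh2 was also the highest for these markers, and their part in the rise was not tested. Myh2 was not called in Sesn2SkM-Tg muscle (1.14, adjusted p = 0.263), and neither was Myh1 in Sesn1SkM-Tg (0.44, adjusted p = 0.434) or Sesn2SkM-Tg muscle (-0.46, adjusted p = 0.388). In all, 2 of 6 genes were called in Sesn1SkM-Tg muscle, against 34.7% of all genes, and 1 of 6 in Sesn2SkM-Tg muscle, against 30.7%. The medians of the 6 genes were 0.10 and 0.15.

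By share, Myh4 held 85.6% ± 4.89 (n = 4) of the family in basal and 67.1% ± 4.85 (n = 3) in immobilized Sesn1SkM-Tg muscle, without overlap. The exact permutation p of 0.0571 is the smallest that 4 against 3 allows. In Sesn2SkM-Tg muscle the share of Myh4 was 72.1% ± 9.90 in the basal and 59.5% ± 4.17 in the immobilized state (n = 4 each; exact permutation p = 0.114). That of Myh2 was 2.19% ± 1.49 and 6.89% ± 1.36, in the same order, without overlap (exact permutation p = 0.0286, adjusted p = 0.214).

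In Sesn1KO muscle, no member was called after immobilization, where 37.1% of all genes were. Myh4 was 45532, 40001, 32709 and 38759 normalized counts in basal libraries and 23276, 31051, 39004 and 26780 in immobilized ones, with overlapping ranges (-0.40, adjusted p = 0.108, limma). Myh1 (0.43, adjusted p = 0.0992) and Myh2 (0.82, adjusted p = 0.121) were not called, and the median of the 6 genes was 0.40. The shares in basal and immobilized muscle were 73.9% ± 7.64 and 60.8% ± 8.39 for Myh4, and 23.7% ± 6.81 and 34.2% ± 6.26 for Myh1 (n = 4 each; exact permutation p for Myh4 = 0.0857). The mean log2 ratio of Myh1 to Myh2 was lower after immobilization in each of the 5 immobilization comparisons, and none of these differences passed after adjustment (lowest adjusted p = 0.171, exact permutation tests).

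Over all genes, 14.9% were called higher and 14.5% lower after immobilization in WT muscle of set 1, and 16.2% and 17.7% in set 2. The shares were 18.2% and 16.5% in Sesn1SkM-Tg, 15% and 15.7% in Sesn2SkM-Tg, and 17.2% and 19.9% in Sesn1KO muscle. Of 12 fast-fiber genes, some fell in each case and none rose, with 7 lower in WT muscle of set 1, in WT muscle of set 2, in Sesn1SkM-Tg and in Sesn1KO muscle, and 10 lower in Sesn2SkM-Tg muscle. In WT muscle of set 2, the largest were Mylk2 (-1.23), Pvalb, a calcium buffer of fast fibers (-1.03), Casq1 (-0.85) and Mybpc2 (-0.68) on the log2 scale. Of 10 slow-fiber genes, 6 rose there and 0 fell, led by Myl2 (1.93), Myoz2 (1.69), Tnni1 (1.08) and Casq2 (1.07). The corresponding numbers that rose were 2 in WT muscle of set 1, 6 in Sesn1SkM-Tg, 5 in Sesn2SkM-Tg and 4 in Sesn1KO muscle, and none fell. Of 9 developmental and denervation genes, 4 rose and 2 fell in WT muscle of set 2 (median 0.63). Runx1 rose by 2.11, Tnnt2 by 1.08 and Myog by 0.81, and Actc1 fell by 1.63. Between the treatments, 7 of the 9 were higher in denervated than in immobilized muscle, against 20.5% of all genes. In WT muscle of set 1, 5 of these 9 rose and 1 fell, with Runx1 at 3.09, Chrna1 at 2.02, Myog at 1.74 and Actc1 at -1.88.

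Of the 18 fiber-type regulators, 4 rose and 7 fell in WT muscle of set 2, and 1 rose and 9 fell in set 1. In set 2, Mef2c (1.04) and Hdac4 (0.98) rose, and Mafa (-1.39) fell. Of the 9 folding and assembly genes, 2 rose and 1 fell in set 2, where Hspb8 rose by 1.34 and Smyd1 fell by 0.57, and 2 rose and 7 fell in set 1, where Smyd1 fell by 1.34. Among other heavy chain genes, Myh14 rose in both sets, by 1.27 in set 2 and 0.62 in set 1, and Myh13 fell by 1.58 in set 2. Differences between sets in these counts were not tested list by list.

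**Figure D4:**
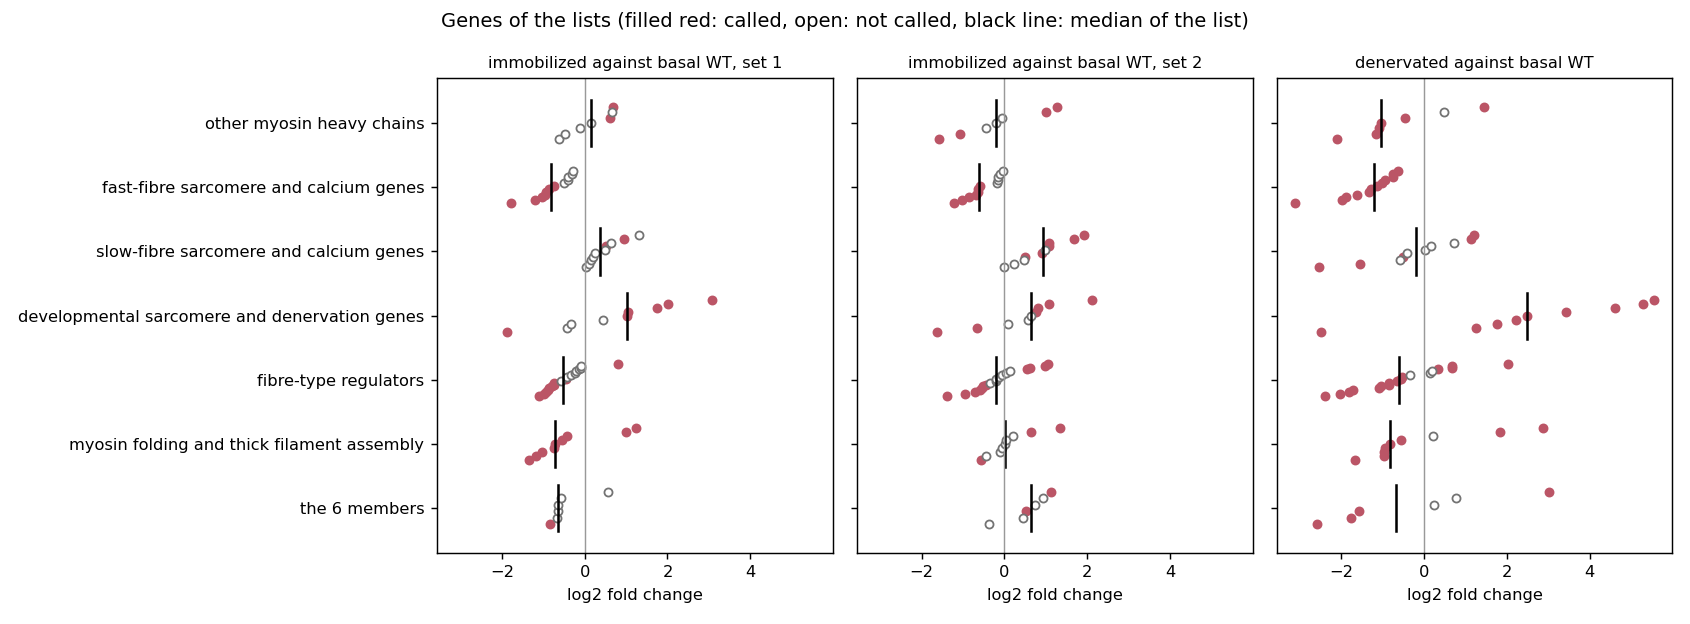
Log2 fold changes of the genes of each list in immobilized and denervated WT muscle, with 1 point per gene, from limma on log2(value + 1). Fast-fiber genes lie mostly below 0 and developmental genes mostly above it, with a median of 2.49 after denervation.

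Of the 6 genes, 1 passed the test between genotypes. The transgenes and the deletion were visible in the libraries: mean Sesn1 was 59.4 ± 15.5 normalized counts in basal Sesn1SkM-Tg and 18.5 ± 3.37 in basal WT muscle, mean Sesn2 was 10.8 ± 2.97 in basal Sesn2SkM-Tg and 2.63 ± 0.524 in WT muscle, and mean Sesn1 was 9.14 ± 0.676 in basal Sesn1KO and 25.8 ± 3.67 in WT muscle (SD, n = 4 each). Reads of the human cDNA counted on a mouse gene give no full measure of a transgene, and the deleted part of Sesn1 is not given, so the remaining signal in Sesn1KO muscle cannot be placed.

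This was Myh8, the neonatal chain. In immobilized muscle it was 6.39, 9.68, 7.28 and 4.16 normalized counts in Sesn2SkM-Tg, 1.11, 3.07 and 1.86 in WT, and 1.25, 3.17 and 0.843 in Sesn1SkM-Tg mice. Every Sesn2SkM-Tg library was above every library of the other 2 genotypes. The log2 difference of Sesn2SkM-Tg from WT was 1.39 ± 0.33 (adjusted p = 0.0261, limma), with 2.94% of all genes called. That of Sesn1SkM-Tg from Sesn2SkM-Tg was -1.56 ± 0.33 (adjusted p = 0.00966), with 5.79% of all genes called. The first call was kept in 2 of 7 fits without 1 library, with adjusted p up to 0.109, and the second in 6 of 7, being lost without Sesn1SkM-Tg immobilized replicate 3 (0.0518). In basal muscle Myh8 was 10.4, 5.88, 5.13 and 9.80 in Sesn2SkM-Tg and 4.11, 2.30, 5.02 and 3.12 in WT mice, without overlap and without a call (0.91, adjusted p = 0.125), where 2.50% of genes were called. These are low levels, and the depth behind them is unknown. Cell type markers differed between the same immobilized groups. In Sesn2SkM-Tg against WT muscle the median log2 difference was -1.09 over 4 macrophage markers, 1 of them called lower, -1.01 over 4 fibroblast markers, none called, and 0.92 over 5 slow-fiber markers, 1 called higher. In Sesn1SkM-Tg against Sesn2SkM-Tg muscle, 3 of 4 fibroblast markers (median 1.47) and 1 of 4 macrophage markers (median 1.38) were called higher. Their part in the differences of Myh8 was not tested.

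No member was called in the other genotype comparisons. The shares of all genes called were 0.0292% for basal Sesn1SkM-Tg against basal WT muscle, 0.00730% for the immobilized muscle of both, 1.79% for Sesn1SkM-Tg against Sesn2SkM-Tg without immobilization, 0.147% for basal Sesn1KO against basal WT muscle, and 0.947% for these genotypes when both were immobilized. In basal muscle, the log2 differences of Sesn1SkM-Tg from WT mice were -1.5 for Myh2 and -0.93 for Myh1, each with an adjusted p of 0.9999. Myh7 was 3.02, 29.4, 1.25 and 9.17 normalized counts in basal Sesn1KO muscle against 1.18, 2.03, 1.10 and 1.56 in WT, a wide spread that overlapped the WT range (1.58 ± 0.53, adjusted p = 0.841). In the same Sesn1KO libraries, in replicate order, the slow troponin Tnnt1 was 1.17, 10.6, 2.69 and 7.72, and Tnni1 was 0.813, 4.06, 0.929 and 3.47. The sum of the 5 slow-fiber markers was 78.7, 138, 208 and 152, so it was not highest in the library with 29.4. Myl3 alone was 74.6, 98.6, 197 and 121. The family took 4.82% ± 0.0902 of the library sum in basal Sesn1KO and 5.79% ± 0.334 in basal WT muscle, without overlap (n = 4 each; exact permutation p = 0.0286, adjusted p = 0.0857 over 15 tests). The same p-values and lack of overlap held for immobilized Sesn1KO against WT muscle, at 4.84% ± 0.485 against 5.83% ± 0.160, and for basal Sesn1SkM-Tg against WT muscle, at 4.81% ± 0.353 against 5.59% ± 0.411.

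Whether genotype altered the response to immobilization was tested by interaction terms. Of these and the terms between the sets, 24 in all for the members, 0 were called by limma and 2 had an unadjusted p under 0.05. Of all genes, 0% were called for Sesn1SkM-Tg, with 401 at an unadjusted p under 0.05, 0.00730% for Sesn2SkM-Tg and 0.0220% for Sesn1KO. Myh7 had an interaction of -1.89 in Sesn1KO (adjusted p = 0.533).

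Pooled over the groups of a set, deviations of Myh1 and Myh2 from the group mean tended to go together. Those of Myh4 tended to go the other way to Myh2. Each library was set against the mean of its own group on the log2 scale. Deviations of Myh1 and Myh2 went together, with Pearson r = 0.738 and Spearman rho = 0.741 over the 22 libraries of set 1 (permutation within groups, adjusted p = 0.00858 and 0.0126 over 6 relations). In the 20 libraries of set 2, r was 0.675 and rho 0.574 (permutation, adjusted p = 0.0167 and 0.0276). Without the 2 libraries farthest from the median, r was 0.679 and 0.539. Myh2 and Myh4 went opposite ways in set 1, with r = -0.603 and rho = -0.590 (permutation, adjusted p = 0.0331 and 0.0276, and r = -0.720 without the 2 farthest libraries). In set 2, r was -0.522 and rho -0.639 (permutation, adjusted p = 0.103 and 0.0219, and r = -0.630 without the 2 farthest). Myh1 and Myh4 gave r = -0.365 in set 1 and -0.234 in set 2 (permutation, adjusted p = 0.236 and 0.391). The part of the sequence that Myh1 and Myh2 share in the relation of these 2 genes was not tested. Single groups did not all follow the pooled relations. In denervated WT muscle, Myh1 deviated by -0.14, -0.22, 0.30 and 0.06, and Myh2 by 0.69, -0.06, -0.26 and -0.38. In immobilized Sesn2SkM-Tg muscle, Myh4 deviated by 0.11, -0.26, -0.10 and 0.25, and Myh2 by 0.62, -0.33, -0.25 and -0.04.

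**Figure D5:**
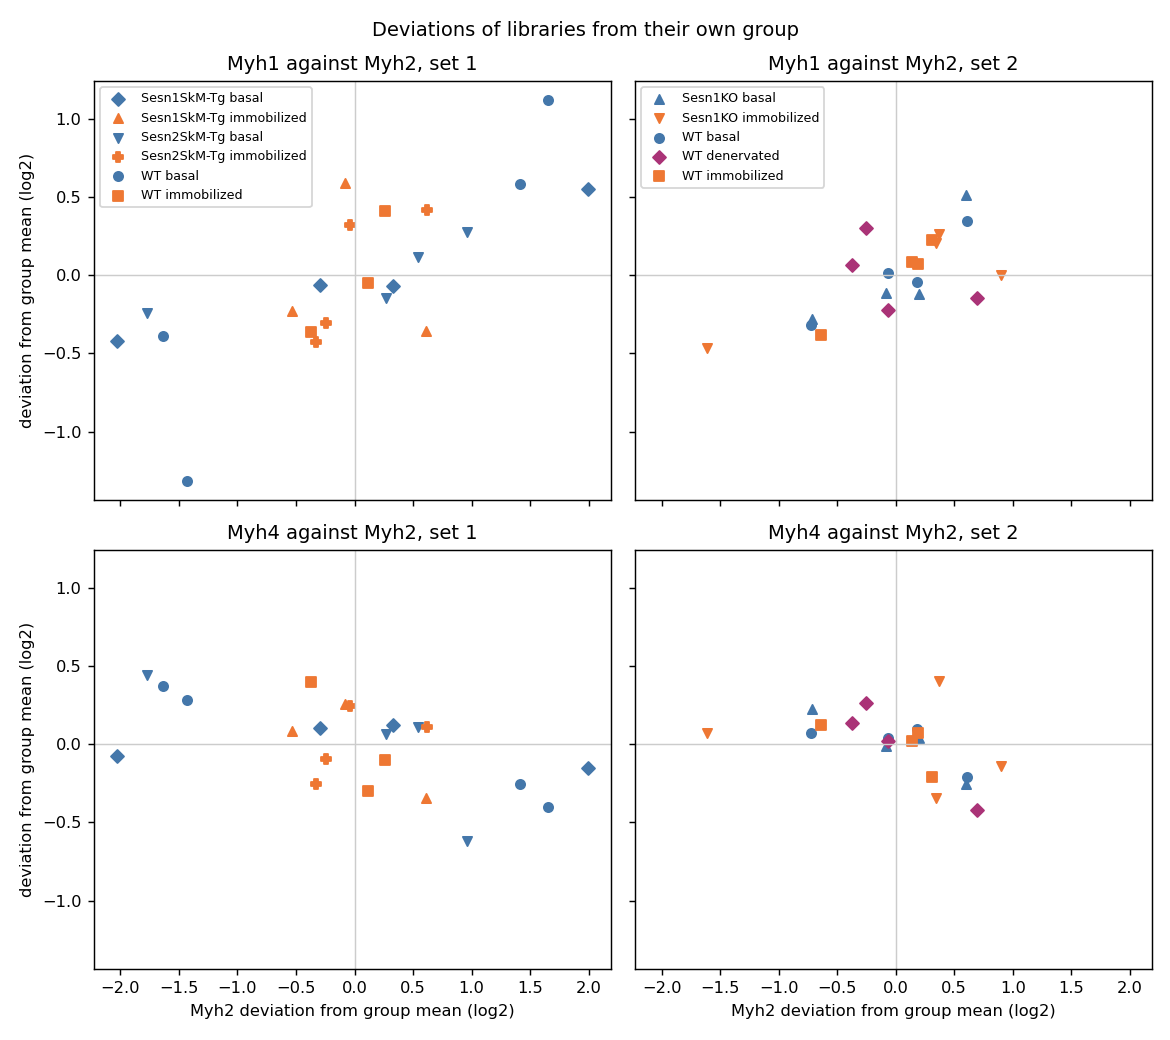
Deviation of Myh2 from its group mean against those of Myh1 and Myh4 (log2 normalized counts), with 1 point per library and the sets marked. Pooled over groups, Myh2 and Myh1 deviate together (r = 0.738 in set 1 and 0.675 in set 2).

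The genes most like each member across libraries were found by the lower of the Pearson correlations of the 2 sets, over 22 and 20 libraries that share groups and scaling. For Myh4 they included Fsd2 (0.944) and Txlnb (0.931). For Myh1 they were Mb, which encodes myoglobin (0.855), Atp1b1 (0.853) and Acss2 (0.853). For Myh2 they were Myl3 (0.884), Actn2 (0.869) and Myoz2 (0.839). For Myh7 they were Tnnt1 (0.639), Tnni1 (0.588) and Tnnc1 (0.566), the slow troponins. Values for Myh3, led by Hnrnpl (0.529), Col25a1 (0.516) and Rab20 (0.497), and for Myh8, led by Nanp (0.587), 2310022A10Rik (0.581) and Irak2 (0.541), were lower.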

How the data were processed

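RNAseq of TA muscle was read from the deposited table of normalized counts, 13809 genes by 42 libraries in 11 groups, taken from the labels. According to the methods, the authors trimmed reads with Cutadapt 1.7.1, estimated expression with RSEM 1.2.20 on the GRCm38 mouse transcriptome, and normalized with limma. The processing notes also name FastQC. The deposited values are a signal: normalized counts on a linear scale, with no 0 (lowest 0.00476) and library sums of 722430 to 1276769. Read numbers are unknown, so no counting error could be given. The table also holds 103 genes without a symbol. Values appear adjusted per gene between the sets, so groups were compared within a set.

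Here, limma 3.58.1 (R 4.3.3; lmFit, eBayes with trend) was fitted on log2(value + 1) to all groups of a set, leaving out genes under 1 in all libraries of the fit (13705 genes in set 1, 13629 in set 2 and 13763 in both). P-values are two-sided, adjusted by Benjamini-Hochberg over all genes tested, and calls required a value below 0.05 together with a log2 fold change of 0.25 or more in size. Shares and log2 ratios, 1 value per library, were compared by two-sided exact permutation tests, adjusted over 90 share tests, 30 ratio tests and 15 tests of the family sum. Relations within groups used 100000 permutations. Named genes are the 6 members, up to 4 called genes of largest absolute change per list, and the 3 genes most like each member. Some results under this rule are not reported here. Actc1 after denervation is also named, as the single list gene that fell, and was chosen after its values were seen. The members and lists were chosen with earlier results of these data known. The fits were tested on simulated data. The labels number the libraries but name no animals, so p-values measure the spread between these libraries. Other filters, pseudocounts, scalings, fits and libraries left out were tried. Positions are from the GRCm38 annotation and promoters from RefSeq.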

Additional observations from a re-analysis of the deposited data

Results flagged for a closer look

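Of 108 checks of a library against the others of its group, 4 stood far apart, where chance alone gives about 1 in 20. In basal Sesn1SkM-Tg muscle, replicate 4 had a Myh4 share of 78.4% of the family, and the other 3 libraries were between 87.5% and 89.0%. The same library had a Myh1 share of 19.7% against 10.8% to 12.1%. Its slow-fiber marker sum was 89.8 normalized counts, against 11 to 24.0 in the other 3. Of this sum, Myl3 alone was 76.2, against 9.12 to 19.0. The part of these markers in the shares was not tested. In denervated WT muscle, replicate 1 had 19.0 normalized counts of Myh8 against 2.66 to 5.32 in the others, and a Myh8 share of 0.127% against 0.0143% to 0.0233%. That library also had the highest Myh3 of its group, at 44.0. None of the 24 interaction tests of the members was called by limma, and 2 had an unadjusted p under 0.05.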

How the results depend on the processing

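Of 16 member calls, the 4 of denervated against basal muscle and the 4 of denervated against immobilized muscle held under all 14 other settings and in all 8 fits that left out 1 library. A further member was called in the first comparison, Myh8, with equal library sums and without denervated replicate 2, and in the second, Myh7, with only the compared groups (adjusted p = 0.0403). Over all member results, 1561 of 1590 fits under other settings and 1005 of 1044 without 1 library kept their side of the threshold, and no called value was reversed. Calls in immobilized muscle depended more on the processing, and the cause was not tested.

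The number of members called after immobilization in WT muscle of set 1, 1 in the report, was 0 with a log2 fold change threshold of 1, with quantile normalization, with equal library sums and with only the compared groups fitted. In Sesn1SkM-Tg muscle it was 2, and 1 with robust eBayes and with only the compared groups, and quantile normalization kept the number with Myh8 in place of Myh4. In Sesn2SkM-Tg muscle it was 1, and 0 with quantile normalization. In WT muscle of set 2 it was 2, and 1 with a log2 fold change threshold of 1, no filter, a pseudocount of 0.1, no pseudocount, quantile normalization, eBayes without trend and robust eBayes, 0 with both sets in 1 fit, and 4 with only the compared groups. In Sesn1KO muscle it was 0, and 1 with quantile normalization, equal library sums and robust eBayes. For Sesn2SkM-Tg against WT after immobilization it was 1, and 2 with only the compared groups. For Sesn1SkM-Tg against Sesn2SkM-Tg in the basal state it was 0, and 1 with both sets in 1 fit and with only the compared groups, and after immobilization it was 1, and 0 with only the compared groups. Without 1 library, these numbers ranged from 0 to 1 for WT muscle of set 1, 0 to 2 for Sesn1SkM-Tg, 1 to 2 for Sesn2SkM-Tg, 0 to 2 for WT muscle of set 2, 0 to 2 for Sesn1KO, 0 to 1 for both genotype comparisons after immobilization, and 0 to 1 for the difference between the sets.

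Replicate numbers are shared between groups. Of 55 same-numbered pairs, 16 had a correlation of deviations over 0.1, and in 0 of 15 comparisons did every pair. The correlations ranged from -0.45 to 0.53. This check gave no consistent pairing by number, but it cannot show that no libraries are paired. With a replicate block, 16 member calls were made, as without it.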
